A study of Mus musculus with 21 samples.

Results

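The leukocyte integrins described here are the products of 10 genes, Itgam, Itgal, Itgax, Itgb2, Itgb1, Itga4, Itga5, Itgav, Itgb5 and Itgb7, which were taken by symbol from the 34573 genes of the deposited count table. The rule uses no measured value, but the genes were picked with earlier results of these data known. The study profiled mouse bone-marrow-derived macrophages (BMDMs) by bulk RNA sequencing to ask how succinate and dimethyl malonate (DMM) alter them with and without lipopolysaccharide (LPS). Marrow came from C57bl/6 animals aged 12 weeks and was grown for 6 days in L929 medium, which supplies the macrophage growth factor M-CSF; no genetic change is named. Succinate dehydrogenase oxidises succinate in mitochondria, DMM is a cell-permeable source of malonate, which blocks this enzyme, and LPS is a bacterial cell wall component sensed by TLR4. The labels give no dose for any agent.

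The groups were DMM for 3 h then LPS for 48 h (2 libraries), succinate for 3 h then LPS for 48 h (1 library), LPS for 48 h alone (2 libraries, of which 1 is fitted), DMM for 3 h then LPS for 4 h (2), succinate for 3 h then LPS for 4 h (1), LPS for 4 h alone (2), DMM without LPS (4), succinate without LPS (4) and untreated control cells (3). The labels give the unstimulated libraries no hours, so each unstimulated treatment is 1 group, and its libraries are named by their numbers in the count table (1 to 4, for controls 1, 3 and 4). The sample titles form a lettered series, which holds the LPS 4 h samples, and a numbered series, which holds the LPS 48 h samples, and unstimulated samples occur in both. Libraries 1 and 3 can be read as the lettered and 2 and 4 as the numbered series; this reading is an inference, and values with the unstimulated libraries split by it are given where they change a call. No label ties a library to its own culture or animal, so each p-value reflects the scatter among these libraries alone, and that scatter may be technical. The library labelled LPS 48 h replicate 1 is kept apart: the acute-phase gene Saa3 held 33.5 counts per 1000000 counts of a library (CPM) in it, against at least 52563 CPM in every other library labelled with LPS and at most 107 CPM in every unstimulated one. Il1b, which encodes interleukin-1β, gave 0.881 CPM in that library, at least 524 CPM in the others labelled with LPS and at most 11.7 CPM without LPS. The remaining 20 libraries form the values below, and every group of 1 library was assumed to vary like the others.

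Integrins are adhesion receptors made of 1 α and 1 β chain. The β2 chain (Itgb2, CD18) pairs with αM (Itgam, CD11b) to form Mac-1 or complement receptor 3, with αL (Itgal, CD11a) to form LFA-1 and with αX (Itgax, CD11c) to form complement receptor 4. These bind ICAMs, fibrinogen or the complement fragment iC3b, and macrophages use them to adhere, to migrate and to take up opsonised particles. The β1 chain (Itgb1) pairs with α4 (Itga4) in VLA-4, a receptor for VCAM-1 and fibronectin, and with α5 (Itga5) in the classical fibronectin receptor; αv (Itgav) pairs with β5 (Itgb5) in a vitronectin receptor used in uptake of dying cells, and β7 (Itgb7) pairs with α4 in a gut-homing receptor for MAdCAM-1. Loss of the β2 chain causes leukocyte adhesion deficiency.

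Total counts ran from 662186 to 1546867 per library, and 9 of the 10 members passed the filter on low counts that left 7651 genes for testing. Itgax did not pass: it had 39 counts over the 20 libraries and at most 7 in any of them, so it has no test of its level. The macrophage label held, with counts for all 9 measured markers; Emr1 (F4/80) measured 4506 to 24155 CPM in LPS libraries and 933 to 3346 CPM in unstimulated ones. Of 11 neutrophil markers 8 had a count, with a summed level of 34.5 to 1143 CPM in LPS libraries and 1.38 to 17.8 CPM in unstimulated ones. S100a8 (7.88 to 556 CPM with LPS and 0 CPM without) and Mmp8 (24.2 to 581 CPM with LPS and 0 to 14.8 CPM without) led it, while Ly6g, Ltf and Retnlg were at 0 in every library and S100a9 had 2 counts in all. Of T cell markers 5 of 8 had a count, of NK cell markers 2 of 5 and of dendritic cell markers 6 of 7. Their sums reached at most 6.21, 1.1 and 12.4 CPM in any library, in that order. Cd3e, Trac, Ncr1 and Clec9a were at 0, while Cd4 had 30 counts in all and Flt3 had 20. In bulk samples fewer cells of a type and less RNA per cell cannot be told apart.

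LPS raised the β2 integrin genes Itgb2, Itgam and Itgal and the fibronectin receptor chain Itga5 in 6 of 6 comparisons, and the members called lower in some comparison were Itgb5 and Itga4. Called means an adjusted p under 0.05 in edgeR's quasi-likelihood test, with Benjamini-Hochberg adjustment over all 7651 genes. After LPS 48 h against control, 5 of 9 tested members were higher and 0 lower, where 18.7% of all genes were called (11.6% higher and 7.15% lower). For LPS 4 h against control, 5 members were higher and 1 lower, where 25% of all genes were called (14% higher and 11% lower). The 4 h and 48 h comparisons of a treatment share its unstimulated libraries. The share of all genes called alike in 6 of 6 comparisons, or without overlap between LPS and unstimulated libraries, is not given here. Such counts therefore describe the named genes alone.

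In cells given DMM, LPS 48 h against no LPS called 4 members higher and 2 lower, where 28.5% of all genes were called (14.2% higher and 14.3% lower). LPS 4 h called 4 higher and 2 lower, where 31.6% were called (14.4% higher and 17.2% lower). In cells given succinate, LPS 48 h called 6 higher and 1 lower, where 17.8% of all genes were called (10.9% higher and 6.86% lower). LPS 4 h called 6 higher and 0 lower, where 16.4% were called (9.96% higher and 6.43% lower). The median log2 fold change of the 9 members was 1.26 for LPS 48 h and 1.03 for LPS 4 h against control, beside medians of -0.10 and -0.08 over all genes tested. In DMM cells the members' medians were 0.63 at 48 h and 0.64 at 4 h, beside -0.03 and -0.01 over all genes. In succinate cells they were 1.25 at 48 h and 1.59 at 4 h, beside -0.17 and -0.18 over all genes. The neutrophil marker sum given above moved in the same direction as the β2 genes. Osteoclast markers, with a count for 4 of 5 and Dcstamp at 0, summed to 12.8 to 39.3 CPM in LPS libraries and 0 to 15.1 CPM in unstimulated ones. Of these Acp5 had 228 counts over the 20 libraries, Ctsk 119, Ocstamp 15 and Calcr 2. The part of either list in these results was not tested.

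**Figure D1:**
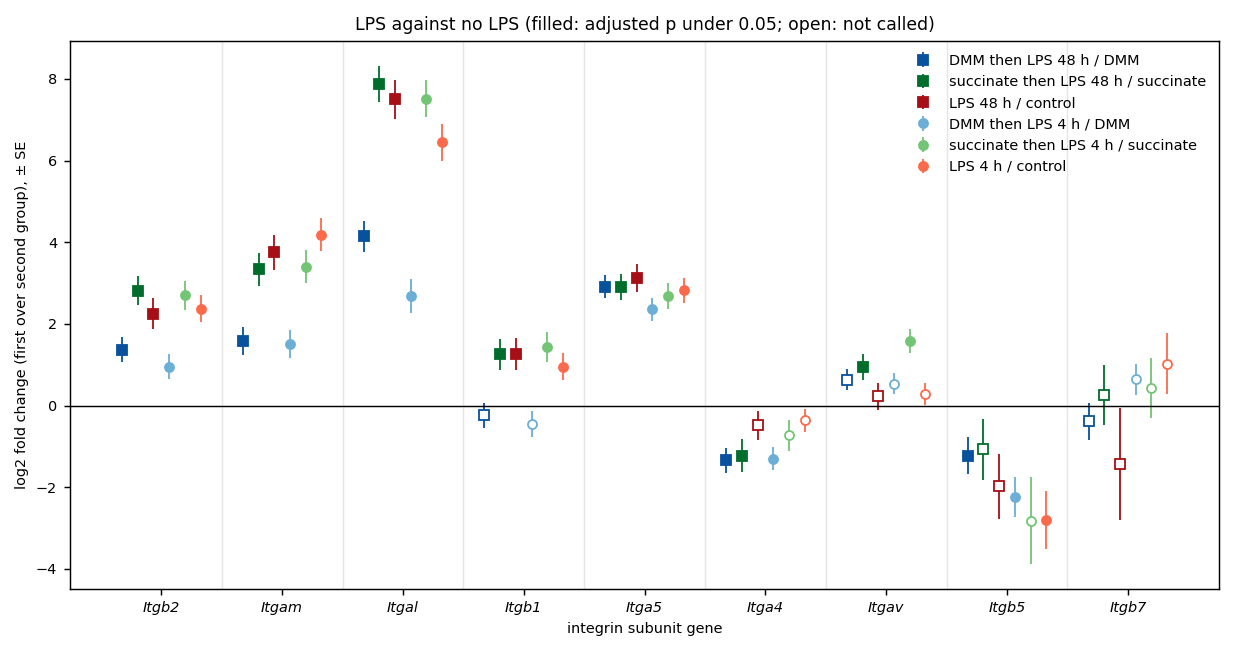
Log2 fold changes (y axis, ± SE) of the 9 tested integrin subunit genes (x axis) for LPS against no LPS, in DMM, succinate and otherwise untreated cells at 48 h (squares) and 4 h (circles); filled symbols are called. Itgb2, Itgam, Itgal and Itga5 are filled and above 0 in all 6 comparisons, and Itgal lies highest, at 2.69 to 7.88; values for Itgb5 and Itgb7 rest on few counts.

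Itgb2, the chain shared by the 3 β2 integrins, was abundant in every library. Itgb2 stood at 875 and 1691 CPM after DMM then LPS 48 h, 3460.2 CPM after succinate then LPS 48 h and 1863 CPM after LPS 48 h alone. At 4 h it stood at 827 and 1097 CPM after DMM then LPS, 3196 CPM after succinate then LPS and 2099 and 1945 CPM after LPS alone. Without LPS, Itgb2 measured 505, 546, 466 and 474 CPM with DMM, 487, 616, 319.8 and 548 CPM with succinate and 402, 368 and 401 CPM in control libraries. All 9 LPS libraries lay above all 11 unstimulated ones, 827 to 3460 CPM against 319.8 to 616 CPM. Itgb2 rose in succinate cells by 2.81 ± 0.36 at 48 h (adjusted p = 2.23e-07) and 2.70 ± 0.36 at 4 h (adjusted p = 5.04e-07), as log2 fold changes ± SE. In otherwise untreated cells it was 2.25 ± 0.39 at 48 h (adjusted p = 3.92e-05) and 2.37 ± 0.34 at 4 h (adjusted p = 9.66e-07). In DMM cells it was 1.37 ± 0.31 at 48 h (adjusted p = 0.000888) and 0.95 ± 0.31 at 4 h (adjusted p = 0.0173). The last of these was no longer called without DMM then LPS 4 h replicate 2 (log2 0.73, adjusted p = 0.185), or with the library labelled LPS 48 h replicate 1 put back (0.99, adjusted p = 0.0654).

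Itgam, the partner that makes Mac-1, rose in all 3 backgrounds. Itgam stood at 635 and 1402 CPM after DMM then LPS 48 h, 3298 CPM after succinate then LPS 48 h and 3016 CPM after LPS 48 h alone. Itgam at 4 h measured 831 and 1110.1 CPM after DMM then LPS, 3446 CPM after succinate then LPS and 3979.6 and 4185 CPM after LPS alone. Without LPS, Itgam measured 298, 365, 312 and 387 CPM with DMM, 281, 416, 201 and 413 CPM with succinate and 160.2, 169.6 and 342 CPM in control libraries. The LPS libraries again lay above all unstimulated ones, and the DMM then LPS libraries lay below every other LPS library at both times. Itgam rose by 3.75 ± 0.44 (log2 ± SE, adjusted p = 4.21e-08) at 48 h and 4.19 ± 0.40 (adjusted p = 4.02e-10) at 4 h over control cells. In succinate cells the change was 3.33 ± 0.40 at 48 h (adjusted p = 8.72e-08) and 3.40 ± 0.40 at 4 h (adjusted p = 5.66e-08). In DMM cells it was 1.58 ± 0.35 at 48 h (adjusted p = 0.000754) and 1.51 ± 0.35 at 4 h (adjusted p = 0.000986), or 2.98-fold and 2.84-fold. Without DMM then LPS 48 h replicate 2, the DMM value at 48 h was 0.89 and not called (adjusted p = 0.0723). An annotated model on the same strand, Gm49368, overlaps 3450 of the 5024 exonic bases of Itgam and has no row in the count table.

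Itgal, the LFA-1 chain, was close to undetected without LPS and had the largest fold changes of the 9 tested members. Itgal stood at 67.9 and 61.5 CPM after DMM then LPS 48 h, 291 CPM after succinate then LPS 48 h and 341 CPM after LPS 48 h alone. The 4 h values of Itgal were 25.3 and 21 CPM after DMM then LPS, 226 CPM after succinate then LPS and 181 and 149 CPM after LPS alone. Without LPS, Itgal measured 1.55, 6.67, 0 and 4.35 CPM with DMM, 1.17, 2.18, 0.688 and 0.786 CPM with succinate and 1.03, 2.34 and 2.01 CPM in control libraries. The unstimulated libraries held 25 counts of Itgal in all and the LPS libraries 1305, with no overlap between them. The log2 rise was 7.88 ± 0.44 in succinate cells at 48 h (adjusted p = 9.54e-16) and 7.52 ± 0.45 at 4 h (adjusted p = 4.64e-15). Over control it was 7.49 ± 0.47 at 48 h (adjusted p = 2.40e-14) and 6.45 ± 0.45 at 4 h (adjusted p = 2.02e-13). In DMM cells it was 4.15 ± 0.38 at 48 h (adjusted p = 1.47e-10) and 2.69 ± 0.42 at 4 h (adjusted p = 5.39e-06). The unstimulated counts of 0 to 9 per library make the size of these folds imprecise; with the unstimulated libraries split into a 4 h and a 48 h set by their numbers, an inference, the DMM value at 4 h was 5.03 (adjusted p = 2.02e-07). With the library labelled LPS 48 h replicate 1 put back it was 2.74 and not called (adjusted p = 0.0601).

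Itgax, the αX chain and the next gene to Itgam on chromosome 7, was sparse with and without LPS. It had 11 counts in the 9 LPS libraries, of which 1 fell in the 5 libraries at 4 h and 10 in the 4 libraries at 48 h, and 28 counts in the 11 unstimulated libraries. The highest single values were 7 counts, in the succinate then LPS 48 h library and in succinate 3. Per kilobase of exon, its mean share of Itgam, Itgal and Itgax together was 0.114% at LPS 48 h and 0.00543% at LPS 4 h, against 0.975% without LPS. Averaged over the 3 backgrounds the share differed by -0.953 percentage points at 4 h (exact permutation test within backgrounds, two-sided, p = 0.0533) and by -0.836 at 48 h (exact permutation test, p = 0.14), so neither passed. The smallest p these designs allow is 0.00133 and 0.00333. Itgam and Itgal, which rose with LPS, are part of the total, so the share can fall while Itgax itself is unchanged. The test therefore does not speak to the level of Itgax. Without 1 of 5 unstimulated libraries in turn (succinate 2 or 4, DMM 1 or 4, control 1) the 4 h exact permutation test passed, with p of 0.005 to 0.0489, and at 48 h it passed without succinate 2 (p = 0.0208). Markers of dendritic cells, which use Itgax, summed to at most 12.4 CPM in any library.

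Itgam, which rose, and Itgax, too sparse to test, are neighbours on chromosome 7, and the 250 bases before each annotated start are shown for comparison, from RefSeq on GRCm38.p6, at chr7:128062390-128062639 (+ strand) and chr7:128129300-128129549 (+ strand). Capitals mark matches, on either strand, to 3 motifs that were searched for: GAGGAA, a core bound by PU.1 and other Ets factors, GGGCGG, the GC box, and TGACTCA, the AP-1 site.
Itgam: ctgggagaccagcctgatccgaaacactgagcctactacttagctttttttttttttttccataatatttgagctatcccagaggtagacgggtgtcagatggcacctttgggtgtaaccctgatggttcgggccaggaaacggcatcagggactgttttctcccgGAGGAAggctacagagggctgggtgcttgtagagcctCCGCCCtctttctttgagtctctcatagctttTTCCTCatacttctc
Itgax: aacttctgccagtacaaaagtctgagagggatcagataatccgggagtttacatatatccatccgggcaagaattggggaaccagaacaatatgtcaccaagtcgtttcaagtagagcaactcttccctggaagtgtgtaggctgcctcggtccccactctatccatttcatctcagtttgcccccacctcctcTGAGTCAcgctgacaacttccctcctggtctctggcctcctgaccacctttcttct
The Itgam stretch held GAGGAA 84 bases before the start, its reverse complement TTCCTC 15 bases before, and the reversed GC box 47 bases before. The Itgax stretch held neither and had 1 AP-1 match, on the reverse strand, 56 bases before the start. Of 32851 promoters of that length, 23.3% held GAGGAA, 32.7% GGGCGG and 4.46% TGACTCA, so the first 2 motifs are common among promoters and the third is less so; TATAAA, found in 12.4%, was in no member's stretch. RefSeq sequences were matched for 8 of the 10 members, without Itgal and Itgb2, and a match is a run of letters and not a measured site.

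**Figure D2:**
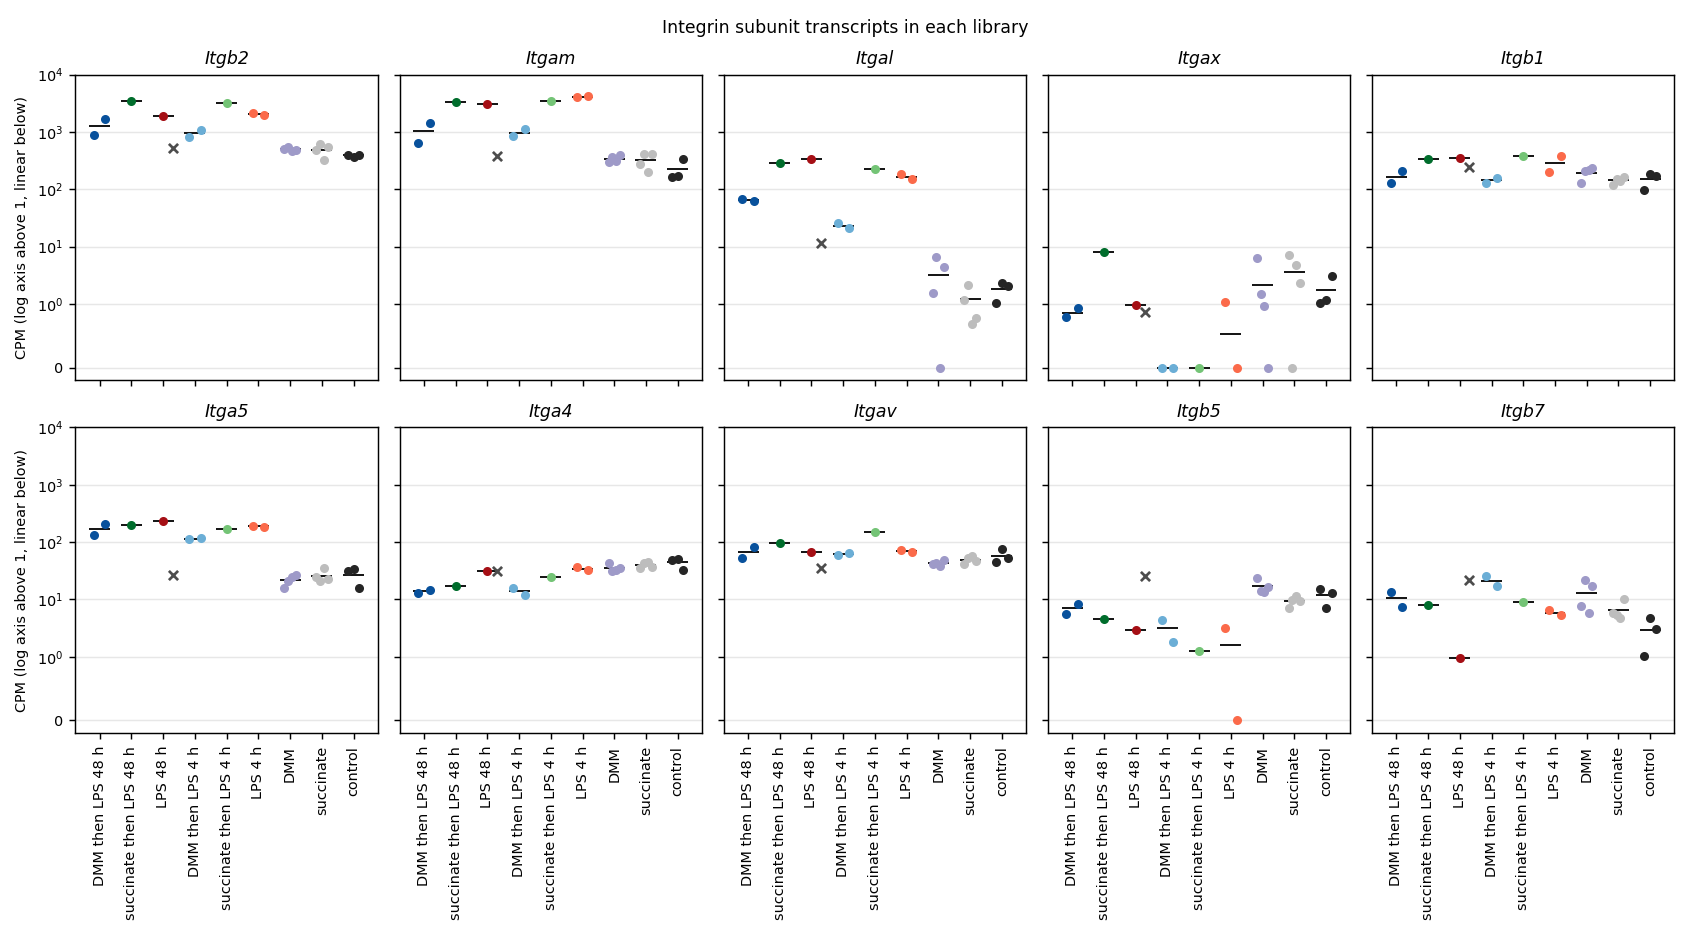
CPM of each integrin subunit gene (y axis, logarithmic above 1 and linear below) in every library by group (x axis), with bars at group means; crosses mark the library labelled LPS 48 h replicate 1, kept apart. Itgb2, Itgam, Itgal and Itga5 lie higher in all 9 LPS libraries than in the 11 unstimulated ones, Itgb5 is lower with LPS within each background, and the DMM then LPS libraries have the lowest Itgam and Itgal among LPS libraries.

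Itga5, the α chain of the fibronectin receptor, rose in all 3 backgrounds. Itga5 stood at 135 and 203 CPM after DMM then LPS 48 h, 199 CPM after succinate then LPS 48 h and 233 CPM after LPS 48 h alone. Libraries at 4 h held 112 and 117 CPM after DMM then LPS, 169.9 CPM after succinate then LPS and 193 and 187 CPM after LPS alone. Without LPS, Itga5 measured 15.5, 20.8, 24.3 and 27.0 CPM with DMM, 24.7, 20.7, 35.8 and 22.8 CPM with succinate and 30.8, 33.9 and 16.1 CPM in control libraries. The lowest LPS library, at 112 CPM, lay above the highest unstimulated one, at 35.8 CPM. The log2 changes were 2.91 ± 0.28 in DMM cells, 2.91 ± 0.32 in succinate cells and 3.12 ± 0.34 in otherwise untreated cells at 48 h, and 2.36 ± 0.28, 2.68 ± 0.33 and 2.82 ± 0.30 in the same order at 4 h, with a largest adjusted p of 1.06e-07. With the unstimulated libraries split by number, the value over control was 3.85 at 48 h and 2.55 at 4 h.

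Itgb1, the β chain that α4 and α5 share, moved less and not in every background. Itgb1 stood at 129 and 204 CPM after DMM then LPS 48 h, 339 CPM after succinate then LPS 48 h and 357 CPM after LPS 48 h alone. At 4 h it stood at 129 and 158 CPM after DMM then LPS, 387 CPM after succinate then LPS and 198 and 379 CPM after LPS alone. Without LPS, Itgb1 measured 126, 211, 214 and 231 CPM with DMM, 116, 150.2, 141 and 162 CPM with succinate and 97.6, 182 and 167 CPM in control libraries. The groups of otherwise untreated cells did not overlap between LPS and control, whereas DMM then LPS overlapped DMM alone at both times. In succinate cells Itgb1 rose by 1.25 ± 0.37 at 48 h (log2, adjusted p = 0.0155) and 1.44 ± 0.37 at 4 h (adjusted p = 0.00486). Over control it rose by 1.26 ± 0.39 at 48 h (adjusted p = 0.0191) and 0.95 ± 0.32 at 4 h (adjusted p = 0.0268). In DMM cells it was -0.24 ± 0.31 at 48 h (adjusted p = 0.607) and -0.45 ± 0.32 at 4 h (adjusted p = 0.284), neither called. The 4 h call over control ended without LPS 4 h replicate 2 (0.41, adjusted p = 0.567) or control 1 (0.76, adjusted p = 0.126), and the 48 h call ended without control 1 (1.07, adjusted p = 0.0732) or with split unstimulated sets (1.09, adjusted p = 0.126). Neither passed with the library labelled LPS 48 h replicate 1 put back (0.99, adjusted p = 0.0517 at 4 h, and 1.05, adjusted p = 0.0849 at 48 h).

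Itga4, the VLA-4 chain, went down where it changed. Itga4 stood at 12.8 and 14.9 CPM after DMM then LPS 48 h, 17.1 CPM after succinate then LPS 48 h and 31.5 CPM after LPS 48 h alone. At 4 h it stood at 16 and 11.9 CPM after DMM then LPS, 24.3 CPM after succinate then LPS and 36.4 and 32.4 CPM after LPS alone. Without LPS, Itga4 measured 43.5, 31.1, 33.1 and 34.8 CPM with DMM, 35.2, 43.5, 44.7 and 36.9 CPM with succinate and 48.3, 51.5 and 33.2 CPM in control libraries. The DMM then LPS libraries and the succinate then LPS libraries lay below every unstimulated library, and LPS alone overlapped control at 4 h. Itga4 fell by 1.34 at 48 h (log2, SE 0.30, adjusted p = 0.000821) and by 1.30 at 4 h (SE 0.29, adjusted p = 0.000594) in DMM cells. In succinate cells the change was -1.23 ± 0.40 at 48 h (adjusted p = 0.0288) and -0.73 ± 0.38 at 4 h (adjusted p = 0.207, not called). Over control it was -0.49 ± 0.35 at 48 h and -0.36 ± 0.28 at 4 h, with adjusted p of 0.385 and 0.39. The succinate call at 48 h ended without succinate 3 (-1.13, adjusted p = 0.0571) and under 3 other settings (-1.19 to -1.21, adjusted p 0.055 to 0.128). It also ended with a block for the title letter or number (-1.15, adjusted p = 0.0549). Cerkl, on the opposite strand and counted in the same table, overlaps 1124 of the 13978 exonic bases of Itga4, and no source here says if strand was used in counting.

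Itgav, the αv chain, was called in succinate cells. Itgav stood at 51.9 and 82.9 CPM after DMM then LPS 48 h, 96.0 CPM after succinate then LPS 48 h and 67.0 CPM after LPS 48 h alone. The 4 h values of Itgav were 60.0 and 65.8 CPM after DMM then LPS, 149 CPM after succinate then LPS and 71.7 and 67.0 CPM after LPS alone. Without LPS, Itgav measured 41.9, 43.0, 38.0 and 49.6 CPM with DMM, 41.1, 53.3, 57.1 and 46.4 CPM with succinate and 44.2, 76.0 and 52.4 CPM in control libraries. The single succinate then LPS 4 h library was the highest of all 20. There Itgav rose by 1.59 ± 0.30 (log2, adjusted p = 0.000148), and at 48 h by 0.95 ± 0.31 (adjusted p = 0.0316), a call that ended without succinate 1 (0.90, adjusted p = 0.0533) and under 3 other settings (0.97 to 0.98, adjusted p 0.0674 to 0.0788). In DMM cells the change was 0.63 ± 0.25 at 48 h and 0.54 ± 0.25 at 4 h, and over control 0.23 ± 0.34 and 0.28 ± 0.27, with adjusted p of 0.0595 to 0.712. Gm13684, on the opposite strand and counted, overlaps 634 of its 10744 exonic bases.

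Itgb5, the β chain that pairs with αv, had a log2 change below 0 in 6 of 6 LPS comparisons, as Itga4 did, with 3 of 6 called. Itgb5 stood at 5.59 and 8.38 CPM after DMM then LPS 48 h, 4.57 CPM after succinate then LPS 48 h and 2.96 CPM after LPS 48 h alone. Itgb5 at 4 h measured 4.4 and 1.83 CPM after DMM then LPS, 1.28 CPM after succinate then LPS and 3.21 and 0 CPM after LPS alone. Without LPS, Itgb5 measured 23.3, 14.1, 13.6 and 16.5 CPM with DMM, 7.05, 9.79, 11.7 and 9.43 CPM with succinate and 15.4, 7.02 and 13.1 CPM in control libraries. Every LPS value but that of DMM then LPS 48 h replicate 2 lay below all unstimulated values, and in each background LPS and unstimulated libraries did not overlap. In DMM cells Itgb5 changed by -1.23 ± 0.45 (log2, adjusted p = 0.0391) at 48 h and -2.24 ± 0.49 (adjusted p = 0.000575) at 4 h. After LPS 4 h alone it had 3 counts in 2 libraries, against 34 in 3 control libraries, a level 7.47-fold lower (95% counting interval 2.35 to 38.0, adjusted p = 0.00274). After LPS 48 h alone it had 3 counts in 1 library, 4.08-fold lower than control (95% counting interval 1.28 to 20.7, adjusted p = 0.0814, not called). In succinate cells it had 4 counts at 48 h and 1 count at 4 h, against 44 without LPS, and neither was called; at 4 h the level was 7.66-fold lower (95% counting interval 1.30 to 309). The DMM call at 48 h ended without any 1 of 4 libraries (DMM then LPS 48 h 1 or 2, DMM 1 or 4; log2 -0.91 to -1.53, adjusted p 0.0631 to 0.317) and under 4 other settings (-1.13 to -1.26, adjusted p 0.0873 to 0.134), and the 4 h call over control ended without LPS 4 h replicate 2 (-1.86, adjusted p = 0.092).

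Itga5 and Itgb5 were called in opposite directions after LPS 4 h and in DMM cells, and their upstream stretches are set beside each other, at chr15:103366792-103367041 (- strand) and chr16:33829415-33829664 (+ strand) of GRCm38.p6, with capitals as before.
Itga5: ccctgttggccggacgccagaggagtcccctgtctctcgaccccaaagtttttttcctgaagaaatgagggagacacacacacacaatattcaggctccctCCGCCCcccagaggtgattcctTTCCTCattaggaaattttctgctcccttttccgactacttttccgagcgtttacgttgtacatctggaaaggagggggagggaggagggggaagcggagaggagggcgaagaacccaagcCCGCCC
Itgb5: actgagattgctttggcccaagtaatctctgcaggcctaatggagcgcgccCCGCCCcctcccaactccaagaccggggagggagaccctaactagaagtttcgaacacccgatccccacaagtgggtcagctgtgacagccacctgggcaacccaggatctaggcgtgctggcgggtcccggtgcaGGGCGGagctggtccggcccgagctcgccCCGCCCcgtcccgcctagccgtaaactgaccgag
The Itga5 stretch held 1 reversed Ets core 127 bases before the start and reversed GC boxes 149 and 6 bases before it. The Itgb5 stretch held GC boxes at 199, 63 and 34 bases before the start and no Ets core. Of the other matched members, Itgav held 2 Ets cores, Itgb1 held 1 Ets core and 1 GC box, Itga4 held 1 GC box and Itgb7 held no match to any of the 4 motifs.

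Itgb7, the gut-homing β chain, was called in none of the 6 LPS comparisons and was higher with DMM. Itgb7 stood at 13.6 and 7.45 CPM after DMM then LPS 48 h, 8.0 CPM after succinate then LPS 48 h and 0.985 CPM after LPS 48 h alone. At 4 h it stood at 25.3 and 17.4 CPM after DMM then LPS, 8.94 CPM after succinate then LPS and 6.42 and 5.41 CPM after LPS alone. Without LPS, Itgb7 measured 7.77, 21.5, 5.84 and 17.4 CPM with DMM, 5.87, 5.44, 4.81 and 10.2 CPM with succinate and 1.03, 4.68 and 3.02 CPM in control libraries. The highest values were in DMM libraries, the lowest in LPS 48 h alone and control 1, and all backgrounds but the untreated overlapped between LPS and no LPS. LPS 48 h alone had 1 count and control 8, a level 2.88-fold lower (95% counting interval 0.386 to 128). In the other 5 LPS comparisons the log2 values ran from -0.38 to 1.03, with a smallest adjusted p of 0.21 (DMM cells at 4 h, 0.64 ± 0.39). With the unstimulated libraries split by number that comparison was 1.71 (adjusted p = 0.0066).

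Set per kilobase of exon, so that genes can be compared, Itgb2 led in control cells with 128 CPM per kb, followed by Itgam at 44.6 and Itgb1 at 36.5 CPM per kb, whose ranges overlapped (31.9 to 68.2 for Itgam and 23.9 to 44.7 for Itgb1). Itga5, Itgav, Itgb5 and Itga4 followed at 5.46, 5.35, 3.33 and 3.17 CPM per kb with overlapping neighbours, and Itgb7, Itgax and Itgal came last at 1.05, 0.362 and 0.273. Itgax and Itgal had 5 counts each in control cells and overlapped (0.214 to 0.629 for Itgax and 0.156 to 0.356 for Itgal), so their order is not resolved. After LPS 4 h alone Itgam led, at 792 to 833 CPM per kb, above Itgb2 at 637 to 688; Itgb1 (48.5 to 93.0), Itga5 (37.9 to 39.0) and Itgal (22.7 to 27.5) came next without overlapping each other. Itgal thus stood in the fifth place after LPS 4 h and shared the lowest place with Itgax in control cells. In DMM then LPS 4 h libraries Itgb2 led at 271 to 360 CPM per kb, above Itgam at 166 to 221, and Itgb7 stood above Itgal, at 6.27 to 9.14 against 3.20 to 3.85.

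The ratio of Itgam to Itgb2 per kb was 0.441 and 0.503 after DMM then LPS 48 h, 0.579 after succinate then LPS 48 h and 0.983 after LPS 48 h alone. At 4 h it was 0.611 and 0.615 with DMM, 0.655 with succinate and 1.15 and 1.31 with LPS alone, while unstimulated libraries ran from 0.242 to 0.519. LPS alone thus had the highest ratios at each time. The share of Itgal in the 3 β2 partner chains was 3.24% to 7.55% after DMM then LPS 48 h, 6.31% after succinate then LPS 48 h and 7.95% after LPS 48 h; at 4 h it was 1.43% to 2.28%, 4.78% and 2.65% to 3.36% in the same order, against 0% to 1.37% without LPS. Itga5 over Itga4 was 15 to 38.6 in LPS libraries and 1.01 to 2.27 in unstimulated ones. These ratios describe the libraries and were not tested.

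**Figure D3:**
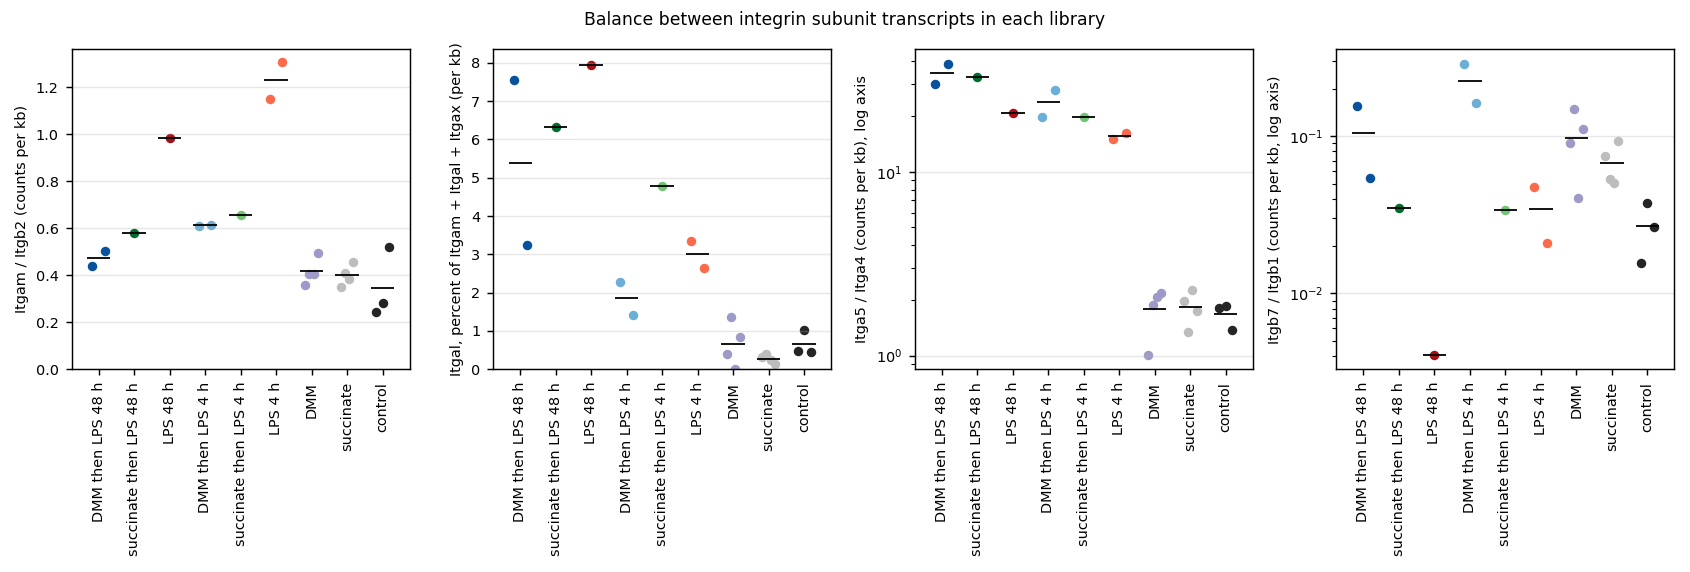
Ratios of subunit transcripts per kilobase in each library by group (x axis): Itgam over Itgb2, Itgal as percent of Itgam, Itgal and Itgax, Itga5 over Itga4 and Itgb7 over Itgb1 (y axes, the last 2 logarithmic); bars are group means. Itga5 over Itga4 separates all LPS libraries (15 to 38.6) from unstimulated ones (1.01 to 2.27), and Itgam over Itgb2 is highest with LPS alone, at 0.983 to 1.31.

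Cells given DMM before LPS had less Itgam and Itgal transcript than cells given LPS alone. At 4 h, DMM then LPS against LPS alone called 3 members lower (Itgam, Itgal and Itga4) and 1 higher (Itgb7), where 13.1% of all genes were called (3.11% higher and 10% lower). Itgam averaged 971 ± 197 CPM with DMM and 4082 ± 145 CPM without (SD, n = 2 each), a log2 change of -2.07 ± 0.43 (adjusted p = 0.00116). Itgal averaged 23.2 ± 3.04 CPM with DMM and 165 ± 22.4 CPM without, a change of -2.81 ± 0.35 (adjusted p = 1.64e-06). These are levels 4.21-fold and 7.03-fold lower. Itga4 changed by -1.27 ± 0.33 (adjusted p = 0.00769).

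Itgb2 and Itgb1 lay on the other side of the threshold in that comparison, at -1.07 ± 0.37 (adjusted p = 0.0505) and -1.01 ± 0.36 (adjusted p = 0.0591), with no overlap of the groups; with split unstimulated sets they were -1.07 (adjusted p = 0.0376) and -1.01 (adjusted p = 0.033). Itga5 (-0.73 ± 0.31), Itgav (-0.14 ± 0.29) and Itgb5 were not called. Itgb7 was higher with DMM by 1.86 ± 0.55 (adjusted p = 0.0201), with 65 counts in the 2 DMM then LPS libraries and 11 in the 2 LPS libraries. The Itgam call ended without DMM then LPS 4 h replicate 1 (-1.87, adjusted p = 0.0535), the Itga4 call without DMM then LPS 4 h replicate 2 (-1.10, adjusted p = 0.0748) or LPS 4 h replicate 1 (-1.19, adjusted p = 0.0724), and the Itgb7 call without DMM then LPS 4 h replicate 1 or either LPS 4 h library (1.55 to 1.98, adjusted p 0.106 to 0.225). With the library labelled LPS 48 h replicate 1 put back, Itga4 was the 1 member still called, and Itgam was -2.06 (adjusted p = 0.0542), Itgal -2.81 (adjusted p = 0.0964) and Itgb7 1.87 (adjusted p = 0.14). By DESeq2, Itgb7 was 1.89 and not called (adjusted p = 0.0648). The neutrophil marker sum was 265 to 386 CPM with DMM and 78.1 to 109 CPM with LPS alone, higher in the libraries with less Itgam and Itgal. In the same comparison osteoclast markers summed to 31.9 to 39.3 CPM with DMM and 12.8 to 18.4 CPM with LPS alone. Fibroblast and stroma markers (6 of 6 with a count) summed to 33.8 to 39.1 CPM with DMM and 6.49 to 15 CPM with LPS alone. Dcn led that list, with 133 counts over the 20 libraries and up to 35.2 CPM in a LPS library. Col1a1 had 57 counts, Col1a2 26, Pdgfrb 6, Lum 3 and Cxcl12 3. Eosinophil markers (2 of 4 with a count, Epx and Prg2 at 0) summed to 8.8 to 11 CPM with DMM and 0 to 1.07 CPM with LPS alone. Ccr3 had 44 counts over the 20 libraries and Siglec5 22. The part of these lists in the DMM result was not tested.

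At 48 h, Itgal was the 1 member called, lower with DMM, where 1.05% of all genes were called (0.183% higher and 0.863% lower). It averaged 64.7 ± 4.52 CPM (SD, n = 2) with DMM then LPS and 341 CPM in the 1 LPS 48 h library, a log2 change of -2.39 ± 0.37 (adjusted p = 0.000181). Itgam differed by -1.57 ± 0.49 (adjusted p = 0.13), Itgb1 by -1.10 ± 0.42 (adjusted p = 0.234), Itga4 by -1.19 ± 0.40 (adjusted p = 0.183) and Itgb2 by -0.54 ± 0.44 (adjusted p = 0.639). The DMM then LPS 48 h libraries differed between themselves in Itgam, at 635 and 1402 CPM, and with split unstimulated sets Itgam was -1.57 and called (adjusted p = 0.0409). Itgal was -1.43 and not called (adjusted p = 0.516) with the library labelled LPS 48 h replicate 1 put back. Itgb7 had 25 counts in the 2 DMM then LPS 48 h libraries and 1 in the LPS 48 h library, a level 10.9-fold higher with a 95% counting interval of 1.79 to 448 (adjusted p = 0.185, not called).

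Without LPS, DMM against control called 1 member, Itgb7, where 0.484% of all genes were called (0.274% higher and 0.209% lower). Itgb7 averaged 13.1 ± 7.53 CPM with DMM (SD, n = 4) and 2.91 ± 1.83 CPM in control cells (SD, n = 3), with no overlap, and a log2 change of 2.25 ± 0.54 (adjusted p = 0.0445). The other 8 tested members ranged from -0.40 (Itgav) to 0.95 (Itgal), none called. Itgam averaged 341 ± 42.4 CPM with DMM and 224 ± 103 CPM in control cells. The Itgb7 call ended without DMM 2 or 4 or any control library (log2 1.85 to 2.71, adjusted p 0.0596 to 0.373), with split sets (1.94, adjusted p = 0.0597) and with the library labelled LPS 48 h replicate 1 put back (2.25, adjusted p = 0.414).

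Whether the DMM difference itself depended on LPS was tested as a difference of effects. At 4 h, where 4.82% of all genes were called (0.81% higher and 4.01% lower), Itgam and Itgal were called: the effect of DMM under LPS minus that without LPS was -2.68 ± 0.54 (adjusted p = 0.00242) for Itgam and -3.76 ± 0.75 (adjusted p = 0.00234) for Itgal. Itgb2 (-1.42 ± 0.47, adjusted p = 0.0713) and Itgb1 (-1.41 ± 0.45, adjusted p = 0.066) did not pass, nor did the other 5. Itgb2 and Itgb1 passed without the filter on low counts, with the block for the title letter or number and with DESeq2. Under these settings Itgb2 was -1.45 to -1.40 (adjusted p 0.0138 to 0.0438) and Itgb1 -1.44 to -1.34 (adjusted p 0.00943 to 0.0442). Itgam at 48 h passed under the same settings (-2.23 to -2.07, adjusted p 0.00402 to 0.0244). At 48 h, where 0.353% were called (0.0654% higher and 0.288% lower), Itgal was the 1 member called, at -3.34 ± 0.76 (adjusted p = 0.0339), and Itgam was -2.17 ± 0.59 (adjusted p = 0.105). With split unstimulated sets Itgal at 4 h was -1.52 and not called (adjusted p = 0.737), while Itgam was -2.96 (adjusted p = 0.000377). The 48 h call of Itgal ended without DMM then LPS 48 h replicate 1, DMM 2 or 4, or control 1 or 3 (-2.63 to -3.54, adjusted p 0.0574 to 0.275). With the library labelled LPS 48 h replicate 1 put back none of the 3 passed (adjusted p 0.0897 to 0.658).

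**Figure D4:**
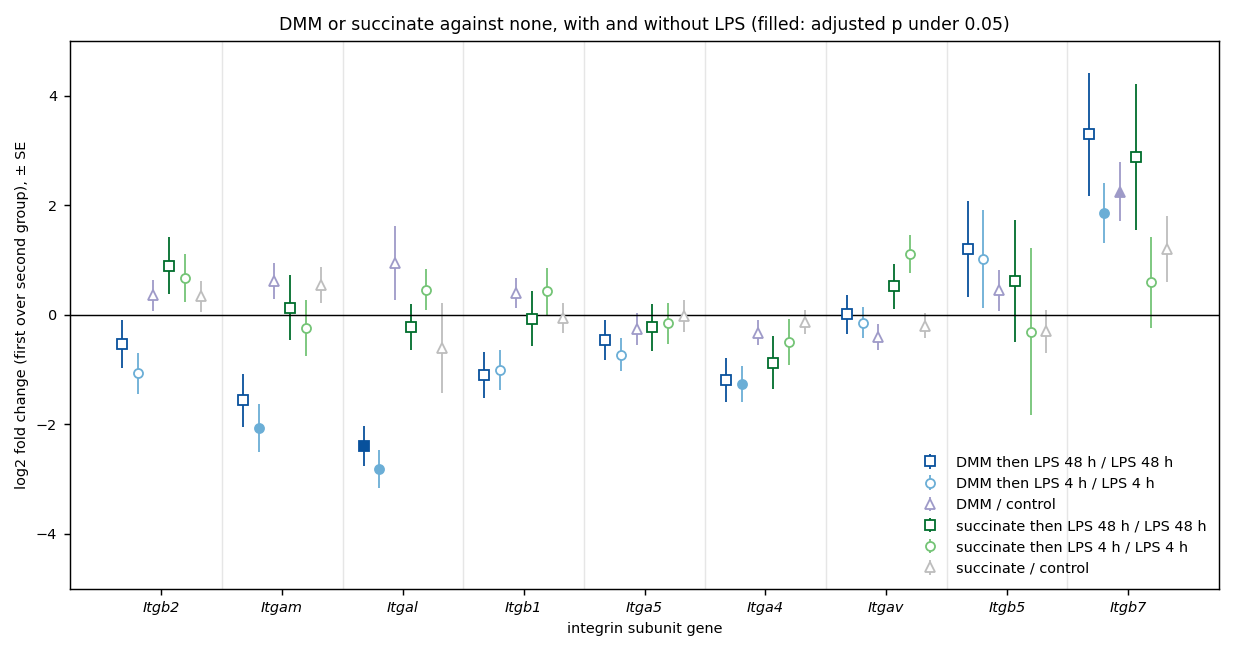
Log2 fold changes (y axis, ± SE) of the 9 tested members (x axis) for DMM or succinate against the matching cells without it, after LPS 48 h (squares), after LPS 4 h (circles) and without LPS (triangles); filled symbols are called. With DMM, Itgam and Itgal lie below 0 under LPS (-2.81 to -1.57) and above 0 without it (0.61 and 0.95, open), Itgb7 lies above 0 throughout, and no succinate symbol is filled.

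Succinate called no member in any of its 3 comparisons, where 0.484% of all genes were called after LPS 48 h (0.274% higher and 0.209% lower), 0.941% after LPS 4 h (0.497% higher and 0.444% lower) and 0% without LPS. The first 2 rest on 1 succinate library each. Against control without LPS, 0 genes of 7651 were called by edgeR's quasi-likelihood test and 0 by DESeq2, with 395 at an unadjusted p under 0.05 in edgeR and 201 in DESeq2. After LPS 48 h the members ranged from -0.87 (Itga4) to 0.89 (Itgb2, 0.89 ± 0.52) apart from Itgb5 and Itgb7, with at most 3 counts in an arm; Itgb7 had 7 counts with succinate and 1 without (8.12-fold, 95% counting interval 1.04 to 366). After LPS 4 h, again without Itgb5, the range ran from -0.50 (Itga4) to 1.11 ± 0.34 (Itgav, adjusted p = 0.166). Itgam differed by 0.13 ± 0.59 at 48 h and -0.24 ± 0.51 at 4 h, and without LPS it averaged 328 ± 105 CPM with succinate (SD, n = 4) and 224 ± 103 CPM in control cells (SD, n = 3). The neutrophil marker sum was 1143 CPM in the succinate then LPS 4 h library, the highest of all.

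Between 48 h and 4 h of LPS no member was called in otherwise untreated cells, where 0.0131% of all genes were called (0.0131% higher and 0% lower), and 353 genes had an unadjusted p under 0.05. By the sample titles, all LPS 4 h samples belong to the lettered series and all LPS 48 h samples to the numbered one. Time and series therefore cannot be told apart in these comparisons. Itgal stood at 341 CPM at 48 h and at 181 and 149 CPM at 4 h (1.05 ± 0.36, adjusted p = 0.841), and Itgam at 3016 CPM at 48 h and 3979.6 and 4185 CPM at 4 h (-0.44 ± 0.52, adjusted p = 1). In DMM cells Itgal was the 1 member called, where 0.98% of all genes were called (0.719% higher and 0.261% lower): it averaged 64.7 ± 4.52 CPM at 48 h and 23.2 ± 3.04 CPM at 4 h (SD, n = 2 each), a log2 change of 1.46 ± 0.35 (adjusted p = 0.0298). That call ended without DMM then LPS 48 h replicate 2 or either DMM then LPS 4 h library (1.35 to 1.62, adjusted p 0.131 to 0.29) and with the library labelled LPS 48 h replicate 1 put back (1.46, adjusted p = 0.752). With a block for the title letter or number, by the inferred reading, the Itgal change was 0.0077 (adjusted p = 0.989), so its size depends on this setting.

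Around the members, of 16 other integrin subunits, Itga6, the laminin receptor chain, was the 1 that passed the filter; it had 10 counts after DMM then LPS 48 h, 7 after DMM then LPS 4 h and 4 after LPS 4 h, against 54 with DMM alone and 32 in control cells, and was called lower in 6 of 6 LPS comparisons. In LPS 48 h alone it had 0 counts, at least 3.84-fold lower than control with a floor of 3 counts over the group. Its call at 4 h over control ended without control 4 or either LPS 4 h library (-1.74 to -2.34, adjusted p 0.0622 to 0.0779), and its DMM call at 48 h without DMM 2 or either DMM then LPS 48 h library (-1.38 to -1.71, adjusted p 0.0521 to 0.105).

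The inside-out activators of integrins are talin, kindlin and the Rap1 GTPases. Of 16 activation genes 11 were tested, and LPS 4 h against control called 4 higher and 1 lower, where 14% of all genes were called higher and 11% lower. The list's median log2 change was 0.53, beside -0.08 over all genes. In DMM cells LPS 48 h called 3 higher and 2 lower, where 14.2% of all genes were called higher and 14.3% lower. LPS 4 h called 1 higher and 2 lower there, where 14.4% were called higher and 17.2% lower. Fermt3 (kindlin-3), which switches on β2 integrins in blood cells, averaged 256 ± 15.9 CPM after DMM then LPS 4 h, 842 ± 68.5 CPM after LPS 4 h (SD, n = 2 each) and 229 ± 9.98 CPM in control cells (SD, n = 3). It rose by 1.88 ± 0.29 with LPS 4 h (adjusted p = 5.74e-06) and changed with DMM by -1.72 ± 0.33 (adjusted p = 0.000511). Rap1b rose over control by 1.87 ± 0.34 at 48 h and 1.77 ± 0.29 at 4 h, and the adaptor Fyb by 1.62 ± 0.38 and 1.70 ± 0.32. Rassf5 (RAPL), a Rap1 effector that binds LFA-1, was lower over control at 4 h (-1.63 ± 0.44, adjusted p = 0.00554), but not without LPS 4 h replicate 1 (-1.25, adjusted p = 0.124). Rassf5 was called lower in 4 of 6 LPS comparisons. In DMM cells its change was -2.22 ± 0.41 at 48 h (adjusted p = 7.09e-05) and -1.60 ± 0.37 at 4 h (adjusted p = 0.000849). Tln1 was not called with LPS over control. It was called lower in 2 of 6 LPS comparisons, both in DMM cells, at -0.69 ± 0.27 at 4 h (adjusted p = 0.0492). Tln1 was also lower in DMM then LPS 4 h than in LPS 4 h, at -1.09 ± 0.31 (adjusted p = 0.014). This last call ended without any 1 of the 4 libraries (-1.06 to -1.13, adjusted p 0.0653 to 0.112).

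Of 28 adaptors and kinases of adhesion sites 24 were tested, and LPS 4 h against control called 8 higher and 1 lower, where 14% of all genes were called higher and 11% lower (median log2 0.03, beside -0.08 over all genes). Lyn, a Src family kinase, rose in 6 of 6 LPS comparisons, over control by 2.37 ± 0.37 at 48 h and 2.31 ± 0.32 at 4 h. Fgr, of the same family, had 30 counts at 48 h, 26 at 4 h and 1 in control cells, at 83.4-fold (95% counting interval 13.9 to 3402) and 39.5-fold (6.48 to 1617) the control level. Syk, a kinase downstream of them, rose by 2.35 ± 0.35 and 2.51 ± 0.30. The actin regulators Vasp and Flna (filamin A, which binds β chain tails) rose by 2.90 ± 0.44 and 1.53 ± 0.30 at 4 h. Tns1 (tensin-1) was called lower in 6 of 6 LPS comparisons, with 0 counts at 48 h and 1 at 4 h, against 88 in control cells (at 4 h 58.0-fold lower, 95% counting interval 10.1 to 2316). DMM then LPS 4 h against LPS 4 h called 6 of these 24 lower and 0 higher, where 10% of all genes were called lower and 3.11% higher (median -0.58, beside 0.06 over all genes), among them Lyn (-1.55 ± 0.35), Vasp (-2.15 ± 0.42) and Flna (-2.10 ± 0.35). Without DMM then LPS 4 h replicate 1, Lyn was -1.37 (adjusted p = 0.0799). The effect of DMM differed between LPS 4 h and no LPS for Icam1 (-1.94 ± 0.40, adjusted p = 0.00291) and for the scavenger receptor Cd36 (-2.56 ± 0.52, adjusted p = 0.00267), and with the library labelled LPS 48 h replicate 1 put back Icam1 no longer passed (adjusted p = 0.204).

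Of 22 ligands 6 were tested. LPS 4 h against control called 2 higher and 1 lower, where 14% of all genes were called higher and 11% lower. LPS 48 h called 2 higher and 2 lower, where 11.6% were called higher and 7.15% lower. The list's median log2 change over control was -0.78 at 48 h and -0.49 at 4 h, beside -0.10 and -0.08 over all genes. In DMM cells it was 1.07 at 48 h and 1.25 at 4 h, and in succinate cells 0.40 and 1.01. Icam1, which LFA-1 and Mac-1 bind, averaged 74.1 ± 7.57 CPM after DMM then LPS 4 h, 212 ± 27.4 CPM after LPS 4 h (SD, n = 2 each) and 24.7 ± 2.49 CPM in control cells (SD, n = 3). It rose with LPS in 6 of 6 comparisons (3.09 ± 0.29 at 4 h over control) and changed by -1.52 ± 0.30 with DMM at 4 h and -1.64 ± 0.34 at 48 h, where the call ended without DMM then LPS 48 h replicate 1 (-1.52, adjusted p = 0.0906). C3, the source of the Mac-1 ligand iC3b, rose over control by 6.76 ± 0.54 at 48 h and 6.70 ± 0.51 at 4 h. Mfge8, a bridge from dying cells to αv integrins, was lower than control, at -2.36 ± 0.58 and -2.96 ± 0.49. Spp1 (osteopontin), an αv ligand, was lower than control at 48 h (-2.68 ± 0.88, adjusted p = 0.0313), but not without control 1 or 3 (-2.46 and -2.45, adjusted p = 0.0654 and 0.0596).

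Of 12 membrane partners 11 were tested, and LPS 4 h against control called 4 higher and 3 lower, where 14% of all genes were called higher and 11% lower (median log2 0.60, beside -0.08 over all genes). Plaur, the urokinase receptor that associates with Mac-1, had 52 counts after LPS 48 h, 213 after LPS 4 h and 3 in control cells, at 48.2-fold (95% counting interval 15.6 to 241) and 108-fold (36.4 to 527) the control level. The tetraspanins Cd9 and Cd81 were lower, at -3.07 ± 0.35 and -3.87 ± 0.47 at 4 h over control. Cd81 was called lower in 6 of 6 LPS comparisons and Cd9 in 4 of 6, those of DMM cells and otherwise untreated cells. Cd81 at 48 h over control was 0.26 (adjusted p = 0.912) with the library labelled LPS 48 h replicate 1 put back, and without succinate 2 or 4 its succinate call at 48 h ended (-1.36 and -1.31, adjusted p = 0.0635 and 0.0655). The DMM call of Cd9 at 4 h ended without DMM 2, 3 or 4 or DMM then LPS 4 h replicate 1 (-0.48 to -0.82, adjusted p 0.0502 to 0.429). Cd9 was higher with succinate then LPS than with LPS alone, by 3.21 ± 0.53 at 48 h (adjusted p = 0.00112) and 2.81 ± 0.40 at 4 h (adjusted p = 6.74e-05), each on 1 succinate library; with the library labelled LPS 48 h replicate 1 put back these values were 1.19 (adjusted p = 0.549) at 48 h and 2.83 (adjusted p = 0.0624) at 4 h.

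**Figure D5:**
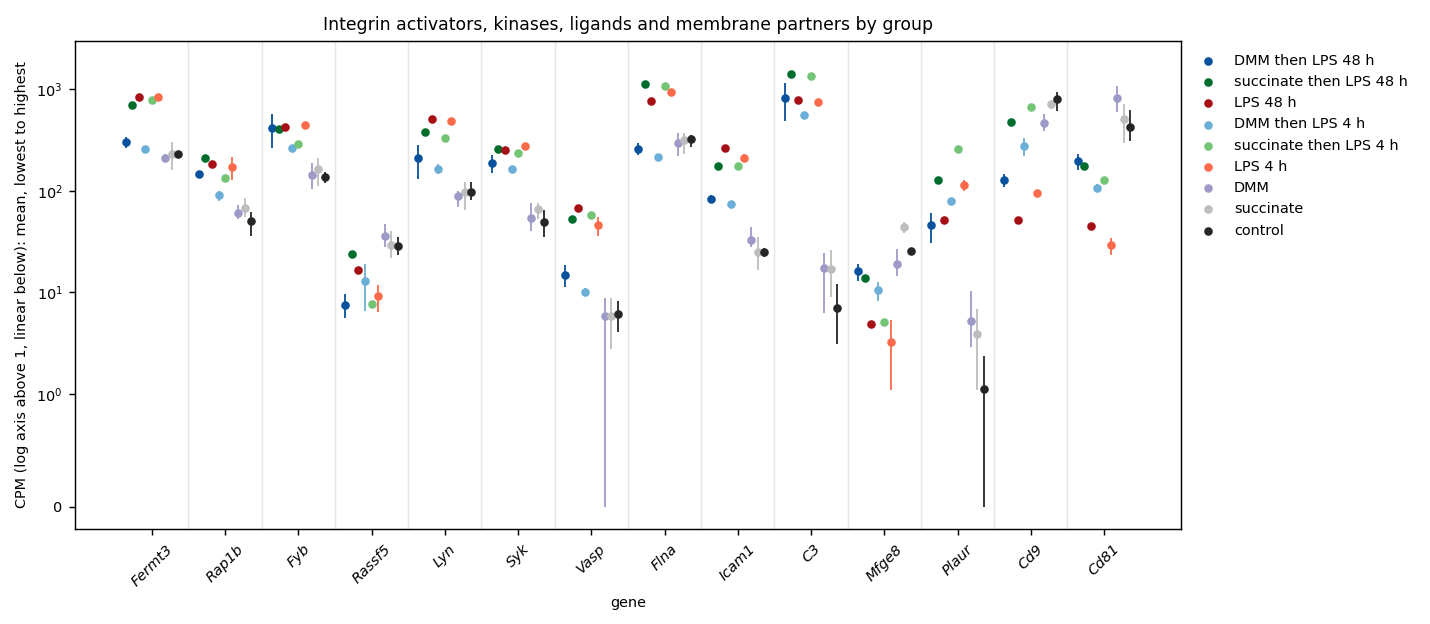
Mean CPM by group (y axis, logarithmic above 1 and linear below; lines span the lowest to highest library) of integrin activators, kinases, ligands and membrane partners (x axis). Lyn, Syk, Icam1, C3 and Plaur are higher in LPS groups than in unstimulated ones and Cd81 is lower; Fermt3, Vasp and Flna with DMM then LPS lie below LPS alone.

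The genes whose log2 CPM was most like each member over the 20 libraries were ranked by Pearson's r. For Itgam these were Marcksl1 (r = 0.986), Lpcat2 (0.982) and Lcp2 (0.981), and for Itgb2 Marcksl1 (0.978), Ywhag (0.977) and Pid1 (0.974). Itgal was most like Ass1 (0.981), Siglece (0.979) and Acsl1 (0.976), and Itga5 most like Irf7 (0.982), Cpd (0.978) and Ero1l (0.978). For Itgb1 they were Fam49b (0.904), Rac1 (0.88) and Tmed2 (0.876), for Itga4 Dock2 (0.925), Glud1 (0.894) and Celf2 (0.89), and for Itgav Nucb1 (0.879), Susd2 (0.87) and Cxcl1 (0.849). For Itgb5 they were Ngfrap1 (0.898), Cryl1 (0.892) and Dnmt1 (0.892), and for Itgb7 Nt5c2 (0.793), Sepn1 (0.758) and Dapk1 (0.757). The 20 libraries fall into stimulated and unstimulated ones and share depth within a library, so r describes likeness over this design and nothing was tested from it.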

How the data were processed

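The values were whole-number read counts for 34573 gene symbols in 21 libraries, used as deposited by the authors. TopHat2, Bowtie, HTSeq and edgeR are named in the submitters' processing notes, while no version, genome build or annotation is given in the sources used here. Per the labels' protocols, libraries came from cell lysates by a modified SmartSeq2 method, and no molecular identifiers are named, so intervals cover counting error only. Overlapping genes cannot be told apart where strand was not used in counting, which no source here states.

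The 10 members and all gene lists were chosen with earlier results of these data known. Stimulated libraries were matched to count columns by name; unstimulated columns carry a treatment and a number but no hours. The library labelled LPS 48 h replicate 1 was kept apart, as the choice of members laid down, and was put back as an alternative. Depth was 662186 to 1546867 counts per library, and low counts give wide intervals.

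Genes were filtered with edgeR's filterByExpr (minimum count 10, minimum total 15), which left 7651. One quasi-likelihood model with robust estimation (edgeR 4.0.16, limma 3.58.1, R 4.3.3) held 20 libraries in 9 groups, with TMM scaling, a common dispersion equal to a biological coefficient of variation of 0.231 and 11 residual degrees of freedom. Adjusted p-values are Benjamini-Hochberg over all 7651 genes, for 16 comparisons, with a threshold of 0.05. The ± sign marks the standard error of a log2 fold change, or an SD where so named. CPM divides by the kept genes' total times its TMM factor; CPM per kb divides by exon length from GENCODE M21. Arms with 0 counts were set to a floor of 3 counts per group, and arms with 1 to 3 counts are given as count ratios with 95% intervals. The fit was tested on simulated counts. Named genes are all members, the called list genes with the smallest p-values, at most 4 per list and comparison, and the 3 genes with the highest Pearson's r to each tested member (log2 CPM, prior count 2). Alternatives were 21 libraries, unstimulated libraries split into 4 h and 48 h sets (12 groups, inferred from column numbers), DESeq2 1.42.0, median-of-ratios scaling, no filter on low counts, a block for the title letter or number, by the same inference, and each library left out in turn. Some listed genes are counted in their lists but not reported by name here.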

Additional observations from a re-analysis of the deposited data

Results flagged for a closer look

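The effect of DMM differed between stimulated and unstimulated cells for Itgal at both times and for Itgam at 4 h, by a test of the difference of effects. After LPS 48 h the difference for Itgal was -3.34 (log2, adjusted p = 0.0339, edgeR's quasi-likelihood test). After LPS 4 h it was -3.76 for Itgal (adjusted p = 0.00234) and -2.68 for Itgam (adjusted p = 0.00242). Itgam was not called at 48 h. The 48 h call of Itgal ended without DMM then LPS 48 h replicate 1, DMM 2 or 4, or control 1 or 3 (adjusted p 0.0574 to 0.275). With the unstimulated libraries split by their numbers, Itgal at 4 h was -1.52 (adjusted p = 0.737). With the library labelled LPS 48 h replicate 1 put back none of the 3 passed (adjusted p 0.0897 to 0.658). With DMM, Itgal was lower in both DMM then LPS libraries than in every other LPS library of the same time, while unstimulated Itgal held 15 counts in 4 DMM libraries and 5 in 3 control libraries.

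The library labelled LPS 48 h replicate 1, left out of the fit, held more of 6 members than any control library. It had 381 CPM of Itgam, against at most 339 CPM in controls and 302 to 387 CPM in DMM libraries, with all 21 libraries scaled together. Itgal stood at 11.4 CPM in it, at most 2.34 CPM in controls and at most 6.71 CPM with DMM. Itgb2 stood at 525 CPM, against at most 397 CPM in controls and 467 to 548 CPM with DMM. Itgb1 stood at 248 CPM, against at most 183 CPM in controls and 127 to 230.2 CPM with DMM. Itgb5 stood at 25.5 CPM, against at most 15.2 CPM in controls and 13.6 to 23.6 CPM with DMM. Itgb7 stood at 22 CPM, against at most 4.69 CPM in controls and 5.85 to 21.6 CPM with DMM. The other library of its label, LPS 48 h replicate 2, held 3091 CPM of Itgam and 1.01 CPM of Itgb7. What treatment this library received was not tested, and it was assigned to no other group.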

How the results depend on the processing

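Of 46 member calls over 16 comparisons, none reversed. Over the alternatives other than leaving out a library, 801 of 849 member values kept their side of the threshold, 29 lost a call and 19 gained one. Leaving out 1 library kept 198 of 229 called values and lost 31.

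The counts of members called in the 6 LPS comparisons stayed within 1.5 times under every alternative run. Putting back the library labelled LPS 48 h replicate 1 left 0 members called for DMM against control, DMM then LPS 48 h against LPS 48 h, 48 h against 4 h in DMM cells and both differences of DMM effects, and 1 for DMM then LPS 4 h against LPS 4 h. With split unstimulated sets the count was 0 for DMM against control, 2 for DMM then LPS 48 h against LPS 48 h and 1 for the 4 h difference of effects. DESeq2 called 0 for DMM against control, where it gave Itgb7 no adjusted p, and without a filter on low counts 2 members were called for DMM then LPS 48 h against LPS 48 h. The 4 h difference of effects gave 4 and the 48 h difference 2 with DESeq2 and without the filter.

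Columns were assigned to titles by the inferred reading of their numbers, and deviations from group means were correlated between libraries of different groups. Of 29 pairs that share a title letter or number, 10 correlated above 0.1 (r from -0.192 to 0.258). In a group of 2 libraries the deviations are mirror images, so these r cannot decide whether libraries pair. A replicate block gave 7 members for DMM then LPS 4 h against LPS 4 h, 0 for 48 h against 4 h in DMM cells, 4 and 2 for the 4 h and 48 h differences.

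Leaving out 1 library gave 0 to 1 members for DMM against control, 2 to 3 for DMM then LPS 4 h against LPS 4 h, 1 to 2 for DMM then LPS 48 h against LPS 48 h, 0 to 1 for 48 h against 4 h in DMM cells, 2 to 3 for the 4 h and 0 to 2 for the 48 h difference of effects. The Itgax share differed by -1.11 to -0.796 percentage points at 4 h and -0.991 to -0.680 at 48 h. Succinate then LPS 48 h against LPS 48 h has 1 library in each arm, so leaving one out was not run.

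Of 158 calls of the 29 list genes, 44 were lost without some 1 library and 65 under another alternative, and Cd81 at LPS 48 h against control reversed to 0.26 with the doubted library put back. The cause of these changes was not tested.

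Over all genes, putting that library back gave 484 calls in place of 1432 for LPS 48 h against control, 792 in place of 1254 and 853 in place of 1360 for succinate then LPS 4 h and 48 h against succinate, 455 in place of 1003 for DMM then LPS 4 h against LPS 4 h, and 98 in place of 369 for the 4 h difference. For DMM against control the 37 calls became 0 with it, 89 with split sets, 121 unfiltered and 127 with the block. For succinate against control the 0 calls became 4, 6 and 6 with split sets, unfiltered and with the block. The 80 calls of DMM then LPS 48 h against LPS 48 h became 185 with split sets and 143 with the block. The 72 and 37 calls of succinate then LPS 4 h and 48 h against LPS alone became 11 and 6 with that library, 127 and 95 with split sets, 118 at 4 h with the block and 72 at 48 h unfiltered. The 75 calls of 48 h against 4 h in DMM cells became 10 with it, 224 with split sets, 145 unfiltered and 124 with DESeq2, and the 1 call without DMM 19, 16, 11, 10 (block) and 4. The 27 calls of the 48 h difference became 61 with it, 84 unfiltered, 104 with the block and 60 with DESeq2, and the block gave 671 for the 4 h difference. DESeq2 called 82 genes higher and 664 lower for DMM then LPS 4 h against LPS 4 h, where the main test called 238 and 765.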

Other observations

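Without LPS, Itgam stood at 365 and 387 CPM in DMM libraries 2 and 4, 416 and 413 CPM in succinate libraries 2 and 4 and 342 CPM in control 4. In the libraries numbered 1 and 3 it stood at 298 and 312 CPM with DMM, 281 and 201 CPM with succinate and 160.2 and 169.6 CPM in control. The higher values carried the even numbers in each treatment, and by the inferred reading of the titles these are the libraries of the series that holds LPS 48 h.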
